A study of Rattus norvegicus with 16 samples.

Results

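The genes described are 9 transcription factors that keep the hepatocyte programme and were measured in livers of adult males of the Sprague-Dawley rat strain. They are the nuclear receptors Hnf4a and Nr5a2, the forkhead proteins Foxa1, Foxa2 and Foxa3, the basic leucine zipper proteins Cebpa and Cebpb, and the homeodomain proteins Onecut1 and Prox1. All probes whose gene name or transcript accession led to these symbols were taken, which gave 11 of the 30367 probes on the array. Of the 9 genes, 8 passed the filter on dim probes and were fitted among 11084 features, where a feature is the brightest probe of a gene name; Prox1 did not pass.

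The 16 arrays fall into 4 groups of 4, all from rats aged 78 to 86 days. Group MM came from litters exposed to a contaminant mixture and fostered, and group CC from control litters that were fostered too. Group M was exposed to the same mixture at 1 mg/kg a day and stayed with its own mothers, and group C was born to dams given corn oil alone and also stayed. The mixture held organochlorine pesticides, polychlorinated biphenyls and methyl mercury in corn oil, and dams were dosed in gestation and lactation, to day 20 after birth. The dams, not the adult pups, were dosed. Each group stands for 8 rats, and each array carried RNA pooled from 2 of them, so the spread of single animals is not seen. Liver RNA was labelled with Cy5. The same reference RNA, a mix from 14 rat cell lines, was labelled with Cy3 on every array, and no dye was swapped. A short label of the M arrays calls them control, whereas their titles and treatment labels call them exposed, and they are taken as exposed here. Slide 2 held MM and M and slide 1 held CC and C, so exposure and slide cannot be told apart, while fostering was compared within a slide. In whole liver, fewer hepatocytes and less RNA of a gene per hepatocyte cannot be told apart.

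As background, hepatocyte identity is kept by a small set of transcription factors that bind each other's genes and, together, the enhancers of liver genes. The Foxa proteins open closed chromatin, Hnf4a then sustains genes of lipid, bile acid and clotting factor metabolism, and Cebpa sustains those of gluconeogenesis and urea synthesis. Cebpb rises in the acute-phase response and in regeneration, Nr5a2 drives bile acid synthesis genes, Onecut1 acts in hepatocyte and bile duct development and responds to growth hormone, and Prox1 holds back Nr5a2 and Hnf4a and also marks lymphatic endothelium.

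Onecut1 had the largest fitted ratio of liver over reference RNA among these genes, though not in the scanner software's own ratio, and in rodents it is known to bind upstream of Hnf4a and of Foxa2. The core letters of its site, ATCGAT or ATTGAT, were searched on both strands in the 250 bases before each start (RefSeq, build GRCr8). Starts of 6 of the 9 genes matched, 7 in all because Hnf4a has 2, and 2 of the 7 held the letters, against 7.78% of the 33469 promoters searched. Both are printed 5′ to 3′ along the gene, with the match in capitals, since they are the only matches of any motif searched in these genes. The first, chr3:172605970-172606219 on the plus strand, belongs to the upstream of the 2 Hnf4a starts. It has the match on the opposite strand from position -29 relative to the start. The downstream Hnf4a start held no match, and which start is used in these livers was not tested. The second printed, of Foxa2, chr3:155927509-155927758 on the minus strand, has its match from position -136.
Hnf4a promoter: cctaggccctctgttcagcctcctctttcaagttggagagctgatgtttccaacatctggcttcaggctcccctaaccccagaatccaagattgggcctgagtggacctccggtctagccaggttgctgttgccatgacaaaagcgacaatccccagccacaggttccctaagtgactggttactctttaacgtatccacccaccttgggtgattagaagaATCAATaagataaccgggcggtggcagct
Foxa2 promoter: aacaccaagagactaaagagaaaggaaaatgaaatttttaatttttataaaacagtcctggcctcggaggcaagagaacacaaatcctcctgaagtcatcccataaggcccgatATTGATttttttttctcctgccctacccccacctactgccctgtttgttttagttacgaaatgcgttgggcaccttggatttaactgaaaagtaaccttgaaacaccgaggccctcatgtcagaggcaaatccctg
The letters searched for other factors were CAAAGTCCA for Hnf4a (in 0.338% of promoters), TGTTTAC for the Foxa proteins (3.21%), TTGCNNAA for the C/EBP proteins (9.22%) and CAAGGTCA for Nr5a2 (1.33%). They were in none of the 7 windows, which says only that these letters are not there.

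Spot position had an effect on these arrays. Each slide has 2 rows of 4 arrays, and a row holds 2 arrays of each group on that slide. Over 20302 bright spots, the difference of the log2 ratio between arrays of slide row 2 and of slide row 1 followed the spot's own row on the array, with a correlation of -0.941. Its median was 0.56 in the first eighth of the 384 array rows and -0.55 in the last. The slope lay in the liver channel, with a correlation of -0.925, against -0.190 in the reference channel. In the scanner software's own log ratio, it was -0.207. Values are therefore given as fitted and, where it matters, also after dividing each channel's signal by a smooth surface over the spots ("position-corrected"), a step chosen after the data were seen. Array MM 3 had the steepest liver surface, 0.57 in the first eighth and -0.79 in the last on the log2 scale. It also had the fewest probes well above background in liver, 35.0%, against 36.1% to 41.9% on the other arrays. Hepatocyte markers fixed as a list were higher in liver than in the reference in 10 of 10 cases, with a median log2 ratio of 6.63.

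All 8 fitted factors were higher in liver than in the reference RNA, and 50.7% of all features were called higher by the same rule (limma, Benjamini-Hochberg adjusted p under 0.05). Onecut1 was 14.5-fold higher, with a mean log2 ratio of 3.86 ± 0.17 (SE). The log2 means of Nr5a2, Foxa3 and Cebpa were 1.73, 1.67 and 1.58, those of Foxa1, Foxa2 and Hnf4a were 1.34, 1.24 and 1.04, and that of Cebpb was 0.37. Adjusted p was 6.97e-10 for Foxa2 and lower for the others, except 0.0262 for Cebpb. The constant of 50 added to each signal before the ratio shrinks ratios of dim probes: the scanner software's log2 ratio was 3.60 for Hnf4a, 4.35 for Nr5a2, 5.43 for Foxa3, 4.52 for Cebpa and 3.74 for Foxa1, but 1.41 for Foxa2 and 0.32 for Cebpb. In that scale Onecut1, at 4.48, stood below Foxa3 and Cebpa, and a second Foxa1 probe stood at 6.30. A ratio also carries any dye bias of its probe.

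In liver, every probe of those 8 genes was well above background on 16 of 16 arrays. Several liver signals were still near background. That of Hnf4a ran from 99 to 136, over a background of 70 to 77. On MM 3 it was 90 over 71 for Foxa1 and 104 over 69 for Cebpa. In the reference RNA this held on 16 arrays for Foxa2, Cebpb and Onecut1, 15 for Foxa1, 14 for Nr5a2, 10 for Hnf4a and for Cebpa, and 5 for Foxa3. Foxa3 was not well above background in the reference on any CC or C array, so its liver level was at least 3.08-fold higher in CC and at least 2.78-fold higher in C. A bound of this kind sets the liver mean against the higher of the probe's own reference signal and the lowest signal counted as above background. A second Foxa1 probe was above background in the reference on 0 of 16 arrays and in liver on all 16, at least 3.38-fold higher. All these bounds equal the fitted mean ratios, because the probe's own reference signal was the higher. They hold neither the spread between arrays nor dye bias. Prox1 was above background on 1 liver array, of group M, and in 1 reference sample. Its log2 ratio lay between 0.08 and 0.38, and it gives no level for these livers.

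**Figure D1:**
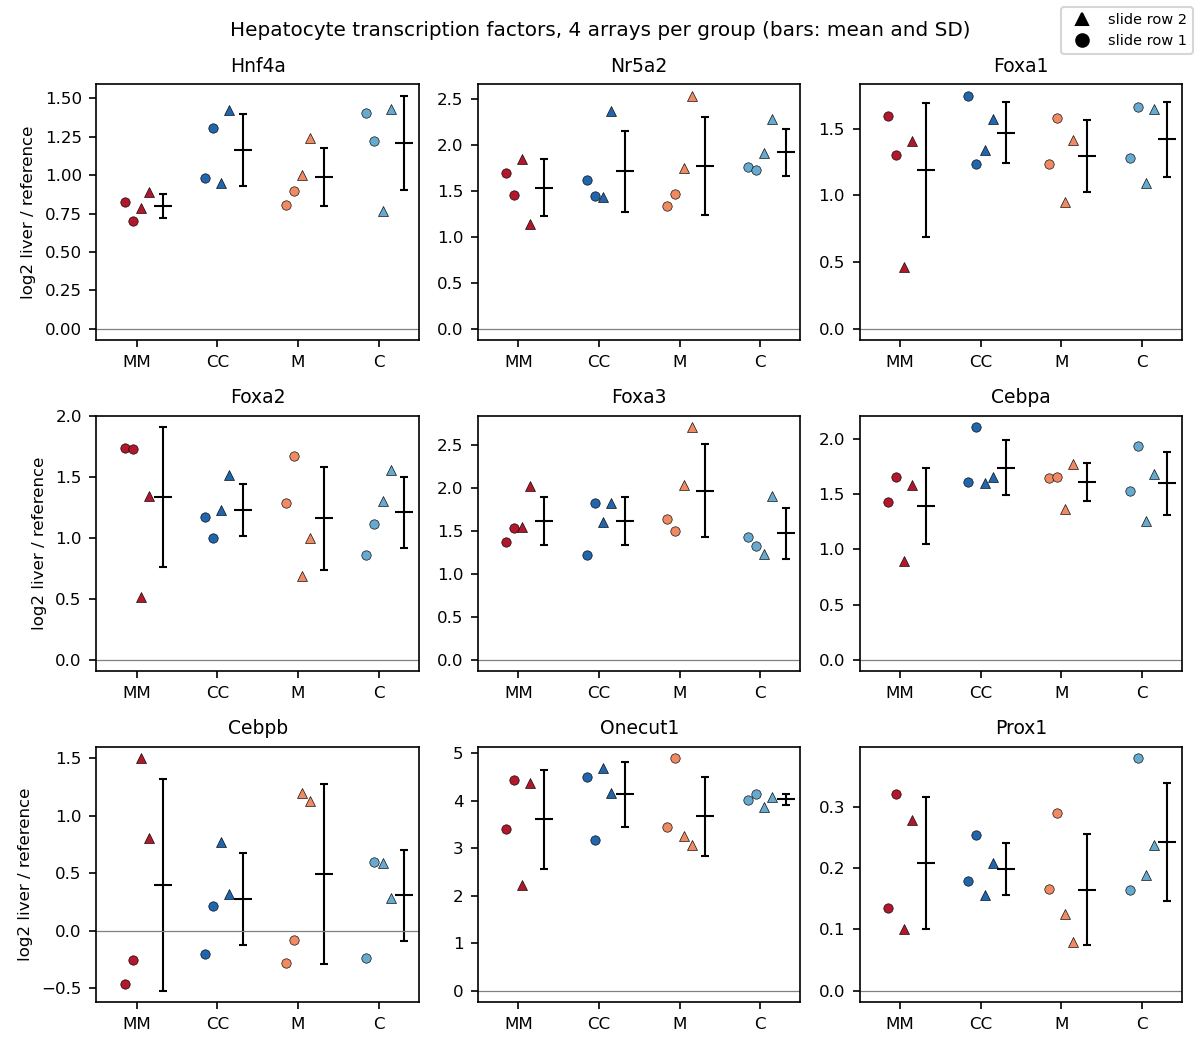
Log2 ratio of liver over reference RNA (vertical axis, own scale in each panel) of each factor in MM, CC, M and C; points are the 4 arrays of a group, triangles slide row 2 and circles slide row 1, with bars for mean and SD. The Cebpb points split by slide row in every group but C, and the Onecut1 points of C lie close together, between 3.87 and 4.15.

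Hnf4a, the orphan nuclear receptor at the centre of the network, had log2 ratios of 0.83, 0.70, 0.79 and 0.89 in MM, 0.98, 1.31, 0.95 and 1.42 in CC, 0.81, 0.90, 1.00 and 1.24 in M, and 1.40, 1.23, 0.77 and 1.43 in C. The 4 MM values lay below all CC values, and M and C overlapped. The mean was 0.80 ± 0.08 in MM and 1.17 ± 0.24 in CC (SD, n = 4 each), a difference of -0.36 ± 0.15 (SE) that missed the threshold (limma, adjusted p = 0.348). MM lay wholly below CC in 3.72% of all features. After position correction the groups overlapped, with a difference of -0.39 ± 0.16 (adjusted p = 0.199), and with the replicate number as a block adjusted p was 0.156. In the liver channel alone MM and CC overlapped, with means of 6.75 and 7.02. In the reference channel they overlapped too, and MM minus CC was 0.09. The M minus C difference of the ratio was -0.22 ± 0.15 (adjusted p = 0.508). Within slide rows it was -0.46 in the first and 0.02 in the second. In the scanner software's log ratio it was -0.64 over all arrays (limma, adjusted p = 0.170).

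Nr5a2, the bile acid synthesis regulator also called LRH-1, had log2 ratios of 1.70, 1.46, 1.85 and 1.14 in MM, 1.61, 1.45, 1.43 and 2.36 in CC, 1.34, 1.46, 1.75 and 2.53 in M, and 1.76, 1.73, 1.91 and 2.28 in C. The groups overlapped, and arrays CC 4, M 8 and C 12 were high in theirs. The group contrasts lay between -0.23 for MM minus M and -0.03 for the interaction, the difference of the fostering effect between exposed and control litters. Without M 8, MM minus M was 0.02 ± 0.22 (SE) and M minus C was -0.40 ± 0.22, against -0.15 ± 0.25 with it. A second, dimmer Nr5a2 probe averaged 1.34. The deviations of both probes from their group means had a correlation of 0.21 over 16 arrays, which share slides and pools. After position correction it was 0.80, and 0.79 without MM 3.

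Foxa1, a pioneer factor of the forkhead family, had log2 ratios of 1.59, 1.30, 0.46 and 1.41 in MM, 1.74, 1.23, 1.34 and 1.57 in CC, 1.23, 1.58, 0.95 and 1.41 in M, and 1.28, 1.67, 1.09 and 1.64 in C. MM 3 was the lowest of all 16, and the groups overlapped. The MM minus CC difference was -0.28 ± 0.22 (SE) with MM 3 and -0.04 ± 0.17 without it. Its second probe gave -0.09 ± 0.21. The correlation of deviations between the 2 Foxa1 probes was -0.04 as fitted and 0.49 after position correction, but 0.24 without MM 3.

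Foxa2, the pioneer factor that also acts in bile acid handling, had log2 ratios of 1.74, 1.73, 0.52 and 1.35 in MM, 1.17, 1.00, 1.23 and 1.52 in CC, 1.29, 1.68, 0.69 and 1.00 in M, and 0.86, 1.12, 1.30 and 1.56 in C. On slide 2 the values of row 1, MM 1, MM 2, M 5 and M 6, were higher than most of row 2, and the groups overlapped. The contrast M minus C was -0.05 ± 0.25 over all arrays, but 0.49 within slide row 1 and -0.59 within slide row 2. MM minus CC was 0.10 ± 0.25 over all arrays, 0.65 within row 1 and -0.44 within row 2. Without MM 3 the MM minus CC difference was 0.38 ± 0.21 and the MM minus M difference 0.45 ± 0.21. With MM 3 the MM minus M difference was 0.17 ± 0.25.

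Foxa3, the forkhead factor that is most abundant in adult hepatocytes, had log2 ratios of 1.37, 1.53, 1.54 and 2.02 in MM, 1.23, 1.83, 1.60 and 1.82 in CC, 1.64, 1.50, 2.04 and 2.71 in M, and 1.43, 1.33, 1.23 and 1.91 in C. Array M 8 was the highest, and all 4 groups overlapped. The M minus C difference, 0.50 ± 0.24 (SE), was the largest upward one of these genes and missed the threshold (limma, adjusted p = 0.289). Without M 8 it was 0.25 ± 0.20, and within slide rows it was 0.19 in the first and 0.81 in the second. Over all arrays it was 0.37 after position correction, and -0.52 ± 0.36 in the scanner software's log ratio (adjusted p = 0.396), which divides by reference signals near background. In that scale MM minus CC was -1.03 ± 0.36 (adjusted p = 0.122), against -0.00 ± 0.24 as fitted. No direction can be given for Foxa3.

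Cebpa, which holds hepatocytes in their resting, metabolic state, had log2 ratios of 1.43, 1.66, 0.90 and 1.58 in MM, 1.61, 2.10, 1.60 and 1.65 in CC, 1.65, 1.66, 1.37 and 1.77 in M, and 1.52, 1.93, 1.26 and 1.68 in C. MM 3 was the lowest and CC 2 the highest, and the groups overlapped. MM minus CC was -0.35 ± 0.18 (SE; limma, adjusted p = 0.492), and -0.18 ± 0.16 without MM 3. M minus C was 0.01 ± 0.18. In the scanner software's log ratio MM minus CC was 0.04 and M minus C was 0.39 (limma, adjusted p = 0.952 and 0.396).

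Cebpb, the acute-phase and regeneration factor, had log2 ratios of -0.46, -0.26, 1.50 and 0.81 in MM, -0.21, 0.21, 0.77 and 0.32 in CC, -0.28, -0.08, 1.20 and 1.13 in M, and -0.24, 0.60, 0.59 and 0.28 in C. In MM, CC and M, both arrays of slide row 2 were higher than both of row 1; in C they were not. After position correction the values were -0.05, 0.05, 0.97 and 0.57 in MM, 0.38, 0.39, 0.48 and 0.11 in CC, 0.19, 0.30, 0.89 and 0.93 in M, and 0.08, 0.69, 0.14 and 0.01 in C. The split remained in MM and M, on slide 2, and not in CC. No group contrast passed, and M minus C was 0.19 ± 0.42 (SE) as fitted and 0.35 ± 0.22 corrected (limma, adjusted p = 0.349). The excess over the reference, 0.37 ± 0.15, did not pass the threshold without any 1 of MM 3, MM 4, CC 3, M 7 or M 8. It was -0.09 within slide row 1 and 0.82 within slide row 2. After position correction it was 0.38 ± 0.08 (adjusted p = 0.000197).

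Onecut1, also known as HNF-6, had log2 ratios of 3.40, 4.45, 2.22 and 4.37 in MM, 4.51, 3.17, 4.69 and 4.17 in CC, 3.45, 4.90, 3.27 and 3.08 in M, and 4.02, 4.15, 3.87 and 4.08 in C. The pools of C lay close together, between 3.87 and 4.15, while those of MM ran between 2.22 and 4.45, and the groups overlapped. MM minus CC was -0.53 ± 0.47 (SE; limma, adjusted p = 0.774), and -0.06 ± 0.41 without MM 3. M minus C was -0.36 ± 0.47, and -0.76 ± 0.44 without M 6, the highest array. Within slide rows, MM minus CC was 0.08 in the first and -1.14 in the second, and M minus C was 0.09 and -0.80. After position correction the differences over all arrays were -0.52 ± 0.44 and -0.41 ± 0.44.

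Across the fostering contrasts, 0 of the 8 factors were called in CC minus C or in MM minus M, where 0% of all features were called. At an unadjusted p under 0.05, 105 features passed in CC minus C and 197 in MM minus M. In CC minus C, 5 of the 8 were above 0, with a median of 0.04, against -0.01 over all features. In MM minus M, 50.8% of all features lay above 0. There 7 of the 8 factors lay below 0, Foxa2 being the exception, with a median of -0.14, against 0.00 over all features. That median was -0.20 after position correction. It was -0.10 in the liver channel, and -0.04 with that channel normalized on its own, where 6 of 8 lay below 0. In the reference channel it was 0.045, with 6 of 8 above 0. In the scanner software's log ratio, the means of Hnf4a, Foxa1, Foxa2 and Onecut1 were higher in MM than in M. The Onecut1 means there were 4.25 and 4.24. Those of Nr5a2, Foxa3, Cebpa and Cebpb were lower in MM. As fitted, Foxa3 had the widest MM minus M difference, -0.36 ± 0.24 (SE), but -0.11 ± 0.20 without M 8. The interaction had 0 factors called against 0% of features (190 at an unadjusted p under 0.05), and its widest value was -0.50 ± 0.33, for Foxa3, and -0.26 ± 0.27 without M 8. The MM minus M median of the 8 was -0.08 without M 8 and -0.12 without MM 3, with 5 of 8 below 0 each time, and over all arrays left out in turn it lay between -0.22 and -0.08. That of CC minus C lay between -0.02 (without CC 4) and 0.12 (without C 12). Leaving out MM 3 turned Foxa1 to 0.14 ± 0.17 and Onecut1 to 0.40 ± 0.41 in MM minus M.

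Across the exposure contrasts, which are also contrasts of slide 2 with slide 1, 0 of the 8 factors were called in M minus C, where 4.20% of all features were. In MM minus CC, 0 of 8 were called and 0.884% of features. With the replicate number as a block, 131 features were called in MM minus CC, against 14 on the same arrays without it, and 0 of the 8 factors either way. After position correction, 13.1% and 4.97% of features were called and again 0 of the 8. M minus C had 5 of 8 factors below 0, with a median of -0.09, against -0.03 over all features. MM minus CC had 6 of 8 below 0, with a median of -0.23, against -0.02 over all features. In the liver channel the MM minus CC median was -0.14, with 5 of 8 below 0. It was -0.05 with that channel normalized on its own, with 4 of 8 below 0. In the reference channel, the same RNA throughout, it was 0.09, with 7 of 8 above 0. For M minus C the liver, own-normalized liver and reference medians were -0.04, -0.01 and 0.05. The medians of the ratio moved when single arrays were left out. That of MM minus CC was -0.12 without MM 3 and -0.10 without CC 4, and -0.30 at the lowest. That of M minus C was 0.0049 without C 12, -0.03 without M 7, -0.05 without M 5 and -0.16 without C 9. The 95% intervals give the precision of the fitted ratios only. Those ratios shrink for dim probes and hold any difference between the slides. For Onecut1 in MM minus CC the interval ran from -1.52 to 0.46, and for Hnf4a from -0.67 to -0.05. The intervals are not adjusted for the number of features, so that of Hnf4a leaves out 0 though its adjusted p missed the threshold.

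**Figure D2:**
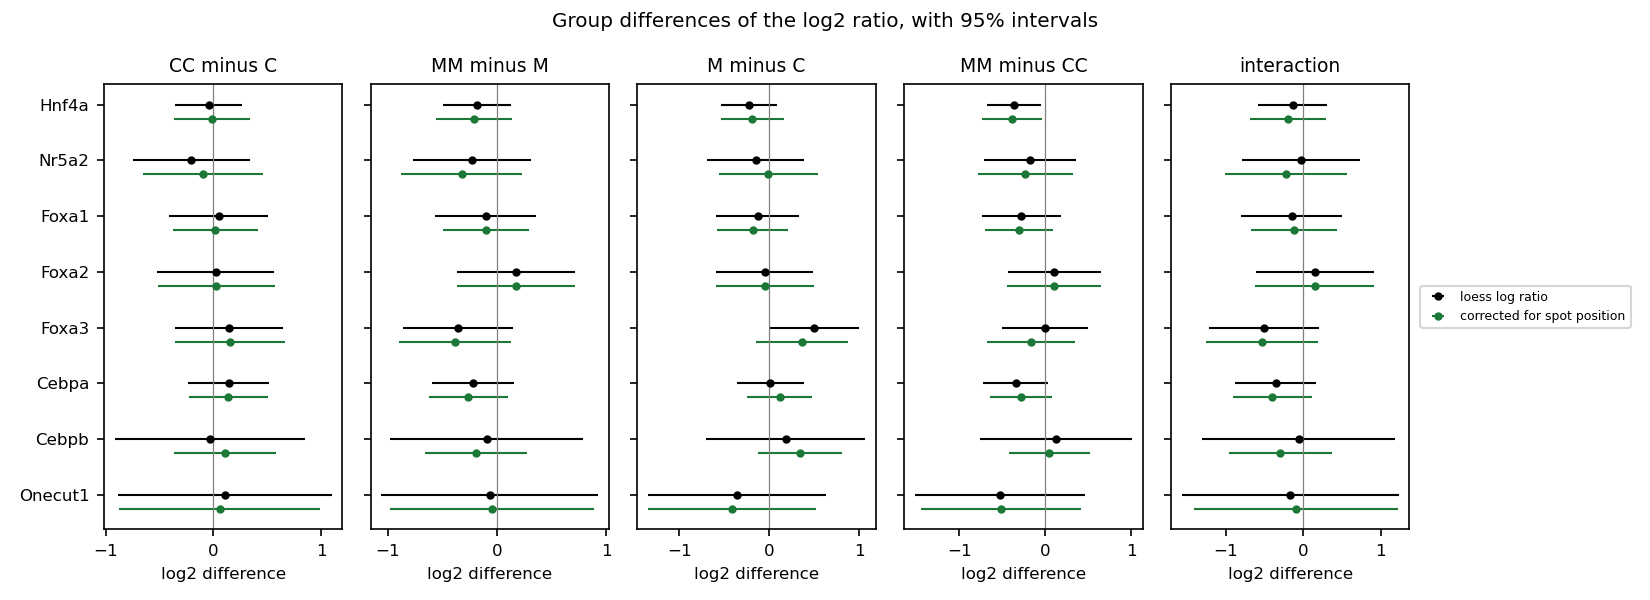
Log2 differences between groups (horizontal axis) for the 8 fitted factors, as fitted in black and after position correction in green; bars are 95% intervals. Most intervals, which are not adjusted for the number of features, cover 0, that of Hnf4a in MM minus CC does not, those of Onecut1 are the widest, and Cebpb narrows after correction.

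The channels taken apart place these differences. In the liver channel alone, 0 of 8 factors were called in M minus C or in MM minus CC, against 0.217% and 0.180% of features. In the reference channel, which holds the same RNA on every array, Cebpb was lower in M than in C by -0.15 ± 0.04 (SE; limma, adjusted p = 0.00661) and Onecut1 was higher by 0.19 ± 0.06 (adjusted p = 0.0128). These are 2 of 8, against 46.3% of all features called there. In MM minus CC the reference channel was higher for Foxa2 by 0.09 (adjusted p = 0.0292), for Foxa3 by 0.16 (adjusted p = 0.00487) and for Onecut1 by 0.22 (adjusted p = 0.00626), 3 of 8 against 24.0% called higher. The reference-channel levels of Onecut1 were 7.16, 7.13, 7.01 and 7.22 in MM, against 6.91, 6.83, 6.93 and 6.99 in CC, without overlap, and those of Foxa2 and Foxa3 did not overlap either. In 21.6% of features MM lay wholly above CC in that channel. Cebpb in M lay wholly below C, as did 18.2% of features. After position correction the calls were Cebpb in M minus C (-0.12, adjusted p = 0.0424) and Foxa3 (0.18, adjusted p = 0.00509) and Onecut1 (0.17, adjusted p = 0.0138) in MM minus CC, against 43.1% called in M minus C and 23.0% called higher in MM minus CC. Of the Onecut1 ratio difference in MM minus CC, -0.53, the liver channel held -0.31 and the reference channel 0.22 of the opposite sign.

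**Figure D3:**
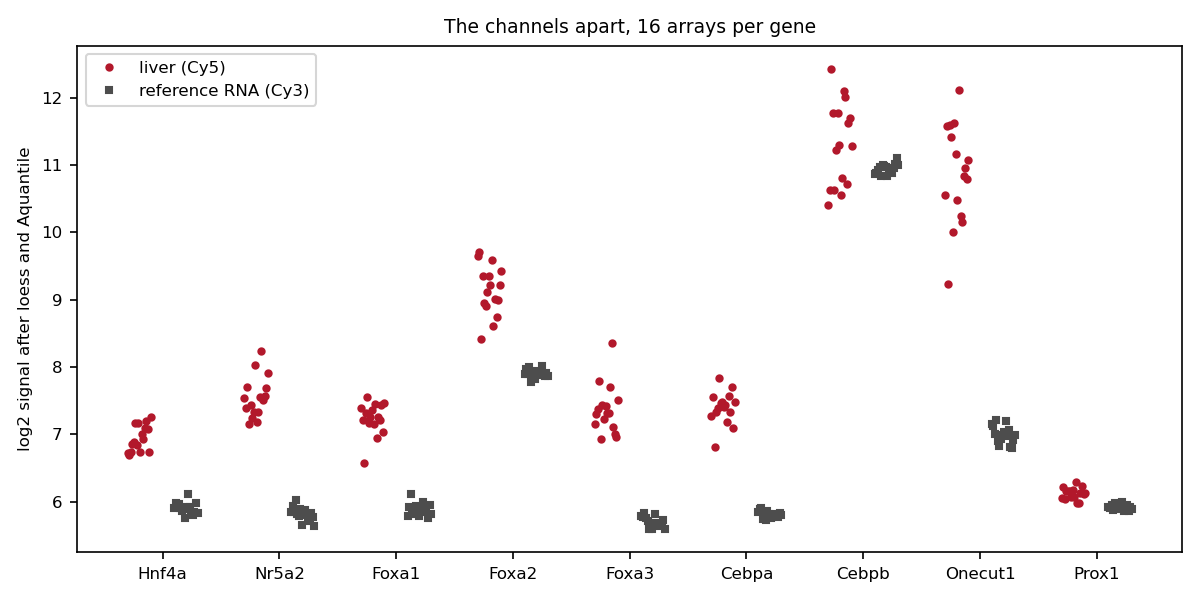
Log2 signal (vertical axis) of each factor on all 16 arrays, liver RNA left of reference RNA, after both channels were normalized together. The reference points of a factor lie close together, and the liver points of Cebpb and Onecut1 are the most spread; levels of different probes are not comparable.

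Between the slide rows, 2 of the 8 factors were called, against 42.5% of all features. Cebpb was higher in slide row 2 than in row 1 by 0.91 ± 0.18 (SE; limma, adjusted p = 0.00108), and Foxa3 by 0.38 ± 0.14 (adjusted p = 0.035). For Cebpb, the liver signal alone differed by 0.97 and the reference signal by 0.06. After position correction 0 of 8 factors and 0.0722% of features were called: Cebpb stood at 0.26 ± 0.15 (adjusted p = 0.52) and Foxa3 at 0.23 ± 0.17 (adjusted p = 0.636). In the scanner software's log ratio 0% of features were called. The Foxa3 call was lost without any 1 of MM 1, MM 4, CC 1, CC 4, M 5, M 6, M 8 or C 12.

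Spots of the same factor show the position effect directly. Foxa2 is printed in 10 places, and its row difference ran between 0.39 and -0.75 over them, with a correlation of -0.995 with the array row. After correction the 10 spots lay between -0.31 and -0.16. The row split of Foxa2 within each slide remained after correction, in opposite directions. On slide 2 its mean was 1.64 in row 1 and 0.88 in row 2, and on slide 1 it was 1.07 and 1.40. The Cebpb spots lie at array rows 6 and 24 and gave 0.98 and 0.84, and 0.29 and 0.23 after correction. Probes of the same gene also differed in sign. With all probes fitted, where 42.5% were called, the second Foxa1 probe gave 0.35 (limma, adjusted p = 0.027) and the first -0.22, and the second Nr5a2 probe gave -0.41 (adjusted p = 0.038) and the first 0.34. After correction those 4 values lay between -0.10 and 0.06, and 0% of probes were called.

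**Figure D4:**
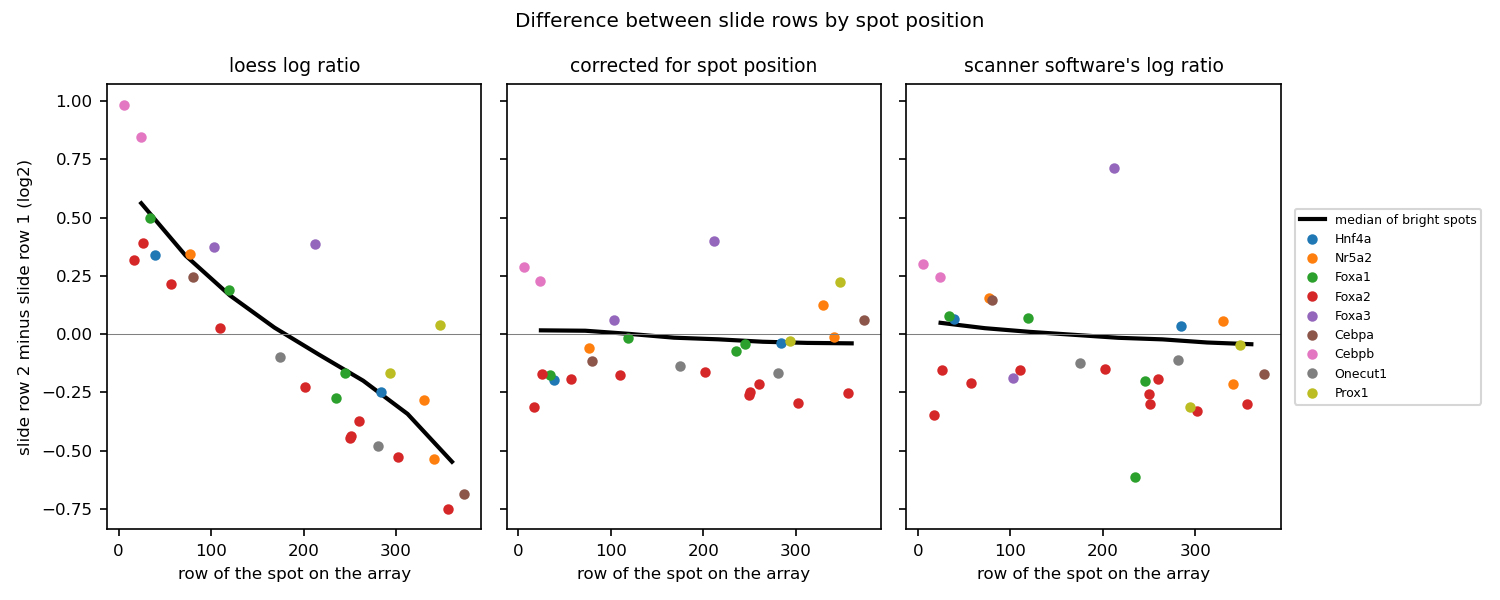
Difference of log2 ratio between slide row 2 and slide row 1 (vertical axis) of every spot of the factors, against the spot's row on the array (horizontal axis), in the fitted ratio, after position correction and in the scanner software's ratio; the line is the median of bright spots. In the first panel most of the factors' spots fall with the array row as the line does, but both Cebpb spots (0.98 and 0.84), the Foxa3 spot at array row 212 (0.39) and the Prox1 spot at row 348 (0.04) lie well above it; after correction the spots lie between -0.31 and 0.40, and the lowest Foxa1 and highest Foxa3 spots stand apart in the scanner panel.

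The spread of the factors between pools of a group was set against that of all features. The SD within groups was 0.75 for Onecut1 and 0.67 for Cebpb, at percentiles 99.7 and 99.5 of all features, and its median over all features was 0.18. That of Hnf4a stood at percentile 64.4, that of Cebpa at 77.9, and those of the other four between 88.6 and 94.2. In the liver channel alone Hnf4a, at 0.17, was below the median of all features, 0.18 (percentile 43.1). After position correction it was 0.71 for Onecut1, 0.42 for Nr5a2, 0.41 for Foxa2, 0.39 for Foxa3, 0.35 for Cebpb, 0.29 for Foxa1, 0.27 for Cebpa and 0.26 for Hnf4a, against a median of 0.13. These stand between percentiles 91.0 and 99.7. Without MM 3 they stood between 86.6 and 99.4. MM 3 had the lowest corrected value of all arrays for Hnf4a, Foxa1, Foxa2, Cebpa and Onecut1, and the highest for Cebpb; how far its RNA or its hybridization sets this was not tested.

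Some factors deviated together over the 16 pools, which share slides and slide rows, so that the correlations are descriptions. Foxa2 and Cebpb had a correlation of -0.80 after position correction and -0.72 without MM 3, and -0.66 as fitted. Foxa3 and Cebpa had 0.75 after correction, 0.76 without MM 3, and 0.28 as fitted. For Foxa1 and Foxa2 the value was 0.71, and 0.55 without MM 3. Hnf4a had 0.64 with Foxa3 and 0.62 with Nr5a2, and Foxa2 had 0.66 with Onecut1, or 0.51 without MM 3.

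**Figure D5:**
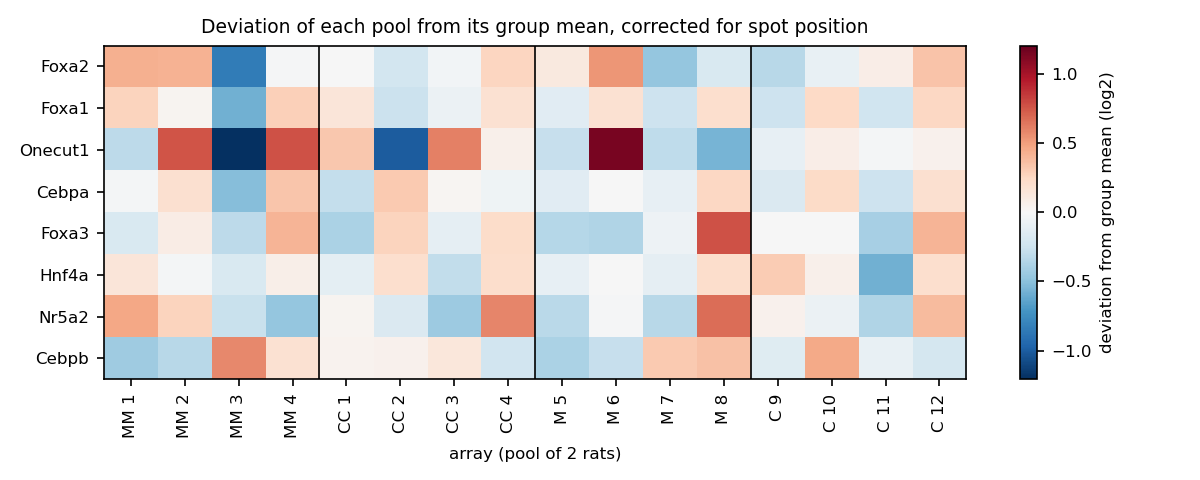
Deviation of each array from its group mean in log2 ratio after position correction (colour scale), for each factor and array. The array MM 3 is low for Foxa1, Foxa2, Cebpa and Onecut1 and high for Cebpb, and Onecut1 ranges most.

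Of 11077 other features, those with deviations most like a factor's were named by rule, over the 16 arrays. For Cebpb it was Eif6, a ribosome assembly factor (0.98 as fitted, 0.84 after position correction). For Cebpa they were Anks4b (0.94, 0.92 corrected) and Cyp3a62, a cytochrome P450 (0.94, 0.88). For Hnf4a it was Rnf103 (0.93, 0.80), and for Nr5a2 they were Fbxo21 (0.88, 0.74) and Dbp, a circadian leucine zipper factor (0.88, 0.88). For Foxa3 the named one was Nags, which makes the activator of the urea cycle (0.90, 0.84). For Foxa2 they were Vgll4 (0.93, 0.85) and Efcab14 (0.91, 0.08), and for Foxa1 Raly (0.92, 0.26) and Efcab14 (0.92, 0.10). The likeness of Efcab14 and Raly thus did not last after correction. The features most like Onecut1 (0.86 and 0.85), and the other one each of Foxa3 and Cebpb, carried no symbol here.

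Other members of the network showed few calls. Of 23 other liver transcription factors tested (30 listed), 0 were called in any fostering or exposure contrast. In MM minus CC 18 of 23 lay below 0, with a median of -0.11, against -0.02 over all features. In the liver channel 13 of 23 lay below 0 (median -0.02), and in the reference channel 15 lay above 0 (median 0.06). Nr2f2, an orphan nuclear receptor, was among those with the lowest p there (-0.35). Its liver signal stood at 0.26 ± 0.15 (SE) and its reference signal at 0.61 ± 0.05. After position correction, M minus C called Nr2f2 (-0.45) and Nr1h4, the bile acid receptor (-0.54), lower and Tef (0.76) higher, 3 of 23 against 13.1% of features. Before correction, the M minus C difference of the liver signal was 0.22 for Nr2f2, -0.45 for Nr1h4 and 0.63 for Tef, and that of the reference signal was 0.65, 0.23 and -0.16. Of 7 coregulators tested (17 listed), Trib1, a pseudokinase that directs C/EBP proteins to degradation, was lower in M than in C by -0.86 ± 0.15 (SE; limma, adjusted p = 0.00398), 1 of 7 against 2.62% of features called lower. The liver signal of Trib1 differed by -0.10 ± 0.15 and its reference signal by 0.75 ± 0.03, so that most of the ratio difference lay in the reference channel. After correction Prmt1 (-0.26) was called lower too, against 8.26% of features, and Trib1 in MM minus CC (-0.54), against 3.15%. As fitted, the liver signal of Prmt1 differed by -0.05 and its reference signal by 0.25 in M minus C. For Trib1 in MM minus CC the liver signal differed by 0.12 and the reference signal by 0.64.

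Of 35 genes tested that these factors are known to drive (36 listed), 2 were called in M minus C, both lower, against 2.62% of features called lower. These were Apoa2, a lipoprotein of HDL (-0.45 ± 0.12, SE; limma, adjusted p = 0.0418), and Tf, the plasma iron carrier (-0.58 ± 0.16, adjusted p = 0.0477). The liver signal differed by 0.09 ± 0.16 for Apoa2 and -0.25 ± 0.14 for Tf, and the reference signal by 0.54 ± 0.16 and 0.33 ± 0.05. In that contrast 24 of the 35 lay below 0, with a median of -0.12, and 10 of 10 hepatocyte markers did, with a median of -0.23. The liver channel did not show this: 16 of the 35 (median 0.02) and 3 of the 10 markers (median 0.05) lay below 0 there. In the reference channel, the same RNA throughout, 29 of 35 (median 0.16) and 9 of 10 markers (median 0.26) lay above 0. In MM minus CC 25 of 35 ratios lay below 0 and 0 were called, with 21 of 35 below 0 in the liver channel (median -0.04) and 29 above 0 in the reference channel (median 0.13). After correction 4 were called lower in each contrast, against 8.26% of features in M minus C and 3.15% in MM minus CC: Apoa1 (-0.33), Apoa2, Slc2a2 (-0.31) and Tf in M minus C, and Apob (-0.41), Orm1 (-0.34), Slc10a1 (-0.35) and Slc2a2 (-0.35) in MM minus CC. Of the markers of other cell types, 9 of 10 Kupffer cell genes lay below 0 in MM minus CC (median -0.19) and 5 of 10 in M minus C. For MM minus CC, 6 of 10 Kupffer cell genes lay below 0 in the liver channel (median -0.03) and 8 of 10 above 0 in the reference channel (median 0.11). The lower ratio was not particular to them. In MM minus CC 6 of 7 endothelium (median -0.23), 3 of 3 myeloid, 3 of 4 erythroid and 8 of 10 hepatocyte markers lay below 0. Stellate cell (3 of 6) and cholangiocyte markers (2 of 4) were split, and the 1 acinar gene tested lay above 0. Cholangiocyte markers, which matter because bile duct cells also express Onecut1 and Foxa2, averaged 6.57 to 6.78 on the log2 scale over all arrays, 3 of 7 being dim on every liver array. Their part in the factors' values was not tested.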

How the data were processed

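Agilent arrays in 2 colours, liver RNA against a common reference RNA, were read from the scanner files, 1 per pool of 2 rats. The authors deposited spot intensity values of both channels, extracted with Agilent Feature Extraction 11.0.1.1, per the file headers. The scanner software's log10 ratio is deposited beside them, dye-normalized, per the file headers, and was turned to log2. The deposited value table holds log2 ratios whose slope was near 1 against loess log2 ratios of the median signals; no source used here says how it was normalized.

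Median signals, chosen in place of mean signals, were background-corrected (normexp, offset 50) and loess-normalized within arrays, with control and left-out spots at weight 0. Spots of a probe were averaged, and the brightest probe stood for a gene. Features well above background in liver on 3 of 4 arrays of a group or more were tested, 11084 in all. The 4 group means were fitted with limma 3.58.1 (R 4.3.3), with 12 residual degrees of freedom and Benjamini-Hochberg adjustment at 0.05; calls are two-sided. Channels were separated after loess and Aquantile. The script was tested on simulated data.

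Position correction divided each channel's signal by a surface (splines with 6 by 3 degrees of freedom over array rows and columns) fitted to bright spots; 2 corrections were tried after the data were seen. CC and MM share replicate numbers: same-numbered arrays deviated together (correlations 0.555, 0.156, 0.582 and 0.192), and same numbers also share a slide row; after position correction these were 0.129, -0.061, 0.208 and 0.004. Nothing says that the pools were processed apart. The main fit had no term for slide row, so its p-values measure the spread between arrays of a group. That spread holds differences between slide rows as well as between pools, and the number of arrays limits the precision.

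Named are all factors, up to 4 called genes (else the 2 lowest p) of each list, and the 2 features most like each factor. Members and lists were chosen with earlier results of these data known. Symbols came from RefSeq, and 18005 of 30367 probes had one. Some features that this rule names are not reported here.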

Additional observations from a re-analysis of the deposited data

Results flagged for a closer look

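In groups of 4 arrays, the array farthest from the others was looked for in 36 groups for each of the fitted and the position-corrected ratios, and 1 was found in each; chance alone gives about 1 in 20 groups. Cebpa on array CC 2 had a log2 ratio of 2.10, against 1.60 to 1.65 on the other CC arrays. Onecut1 on array M 6 had a position-corrected log2 ratio of 4.81, against 3.11 to 3.39 on the other M arrays.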

How the results depend on the processing

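The number of factors called in CC minus C, MM minus M and the interaction was 0 under every alternative run. Features called in M minus C numbered 466 as fitted, 213 to 541 leaving out an array (213 without M 8), 1364 from the scanner software's log ratio, 831 with array weights, 1173 with slide row as a block, 184 and 4 within slide rows 1 and 2, 24 in the liver channel, 1 in the liver channel normalized on its own and 5133 in the reference channel. With position correction there were 1449, 1604 over all probes, 1602 with slide row as a block, 41 in the liver and 4777 in the reference channel, and 1013 with the first form of the correction. In MM minus CC the count was 98, 31 to 106 leaving out an array (46, 31, 43, 35 and 53 without MM 2, MM 4, CC 1, CC 2 and CC 3), 486 from the scanner software, 409 with slide row as a block, 65 and 1 within slide rows 1 and 2, 20 in the liver channel, 4 in that channel on its own and 4890 in the reference channel. The replicate block on CC and MM alone called 131 features, against 14 on those arrays without it, and 0 factors. With position correction there were 551, 618 over all probes, 692 with slide row as a block, 22 in the liver and 4618 in the reference channel, 201 with the replicate block and 252 without it, and 264 with the first form. The replicate block changed no other call on the factors.

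In CC minus C the scanner software's ratio called 1 feature. Liver over reference called 18484 features without the filter, against 10238 with it, and 7 to 8 factors leaving out an array. Slide row 2 minus row 1 called 4711 features, 0 from the scanner software, 129 in the reference channel, 8 with position correction (0 over all probes, 3 and 90 in the liver and reference channels) and 2118 with its first form. It called 2 factors, 1 to 3 leaving out an array, 0 from the scanner software, 1 without the filter, 4 over all probes, 0 in the reference channel, 0 with position correction in each form of channel or probe, and 1 with its first form. The reference channel called 2 factors in M minus C and 3 in MM minus CC, or 1 and 2 with position correction. Cebpb over the reference was -0.089 within slide row 1. In the reference channel, the slide row difference was -0.012 for Cebpb with position correction, and for Foxa3 -0.036 without and -0.011 with it. Cebpb over the reference fell short of the threshold in the deposited value table (0.31) and with array weights (0.25). Of 1808 values of single factors under the alternatives, 1730 were counted as unchanged. A called value counted so if it kept its direction and stayed called. An uncalled value counted so if it stayed uncalled and shifted by less than its factor's SD within groups, whatever its sign. Of the rest, 39 uncalled values moved by that SD or more and 11 became called. Of the called values, 24 fell short of the threshold and 4 reversed direction. Changes of sign in uncalled values, as for Onecut1 in MM minus M without MM 3, are therefore not counted as reversals. The count of unchanged values was also partly fixed in advance. Leaving out an array keeps the difference of every contrast that does not use that array. The SD allowed for a shift was as wide as 0.75, for Onecut1. The position correction and the fits of CC and MM alone without a block were chosen after the data were seen. The causes were not tested. Dim reference signals limit the ratios of Hnf4a, Cebpa and Foxa3, and liver signals near background limit those of Hnf4a, Foxa1 and Cebpa.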
